A study of Mus musculus with 2 samples.

Results

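The 10 chemokine genes described here encode attractants of lymphocytes and monocytes: Cx3cl1, Cxcl16, Cxcl9, Cxcl10, Cxcl12, Ccl2, Ccl5, Ccl7, Ccl20 and Ccl28. They were taken by name from the 54532 genes of the deposited count table, and all 10 were found there. The series holds 1 wild-type and 1 knockout sample of 4T1 cells, a line grown from a mammary carcinoma of a BALB/c mouse, and its design text names Cd28 as the deleted gene. Poly(A) RNA of each was made into a sequencing library. The labels do not say how the gene was disrupted, whether the cells are 1 clone, or whether they were treated. The library analysed here is the one labelled KO; the wild-type library was not analysed, because the remaining count column has a name that matches no sample label. All values are therefore levels in 1 library without a replicate, and no effect of the knockout was measured.

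Chemokines are small secreted proteins that guide leukocytes along a concentration gradient by activating G protein-coupled receptors. Most are released as soluble proteins and held on heparan sulfate, whereas CX3CL1 and CXCL16 are made as type I membrane proteins with the chemokine domain on a mucin stalk, and ADAM proteases can cut them from the cell. In tumours, CXCL9, CXCL10, CXCL16 and CCL5 are known for drawing T and NK cells, CCL2 and CCL7 for drawing monocytes, and CXCL12 for its stromal origin.

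In the knockout library 15565990 reads were counted on genes, 8 of them on Cd28. Genes with 10 reads or more are called detected. The level of a gene is given per 1000000 reads (CPM) and, for comparison between genes, as TPM, in which each gene's reads are first divided by its length in the table and the results then sum to 1000000. Intervals are exact Poisson 95% intervals. The reads carry no molecular identifiers, so intervals and limits cover counting error only. The epithelial identity of the cells was seen in Krt18 (16451 reads) and Krt8 (10318), and 5 of 6 epithelial markers were detected, with Cldn7 at 0. Markers of cells that also make these chemokines were mostly undetected, with exceptions. Of 9 T and NK cell markers 1 was detected, Trac with 46 reads, and Cd3d, Cd3e, Cd3g and Cd4 had 0. Of 7 myeloid markers 2 were detected, Cd68 (555) and Cd14 (180), with Ptprc and Adgre1 at 0; the TPM of Cd68 was 84.2, above 85% of detected protein-coding genes. Of 6 fibroblast markers 2 were detected, Pdgfra (839) and Col1a1 (59), with Pdgfrb, Col3a1, Dcn and Lum at 0, and of 5 endothelial markers 0 were detected, Tek being highest with 6 reads.

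The membrane-bound chemokines took most of the reads. Cxcl16 and Cx3cl1 held 2511 of the 2632 reads of the 10 genes (95.4%), and were the 2 members with a TPM above 24.4, the median over protein-coding genes that were detected. Ccl20 and Ccl5 were detected below that median, Cxcl10 and Cxcl9 had 3 reads or fewer, and Ccl2, Ccl7, Cxcl12 and Ccl28 had 0. Thus 4 of the 10 were detected, where 52.2% of all 22046 protein-coding genes were; 2 were above the median, where 26.1% of all were; and 4 had 0 reads, where 37.4% of all had none. The median TPM over the 10 members was 0.159. In a bulk library, a few cells with much of an mRNA and many cells with little cannot be told apart.

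**Figure D1:**
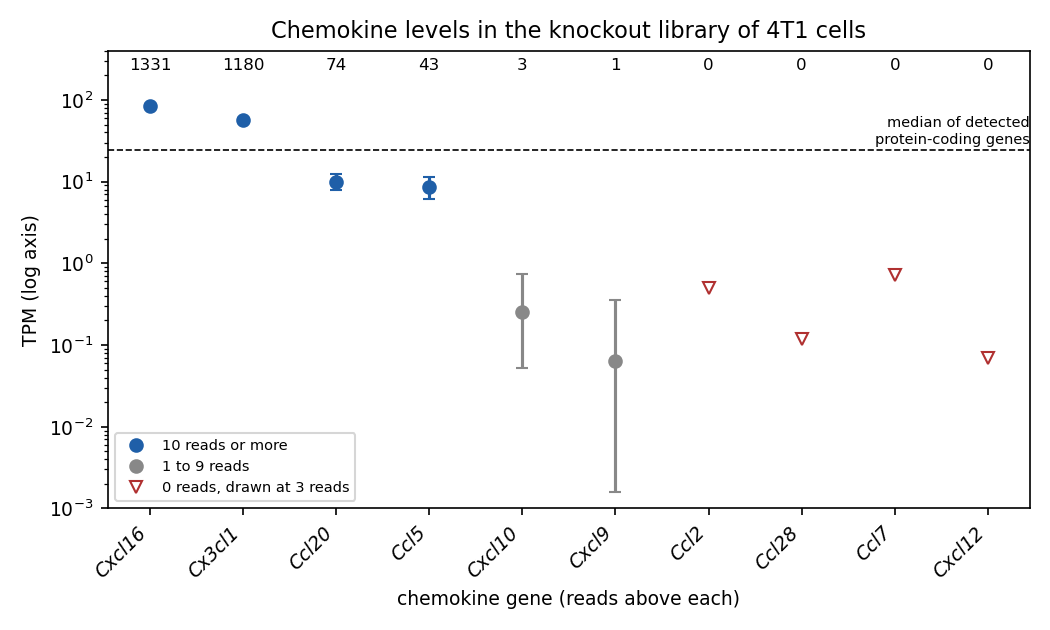
TPM (log axis) of the 10 chemokine genes in the knockout library, in order of level, with the read count above each. Filled points carry exact Poisson 95% intervals, open triangles stand at the TPM of 3 reads for genes with 0 reads, and the dashed line is the median of detected protein-coding genes (24.4); Cxcl16 and Cx3cl1 lie above it and the other members below.

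Cxcl16 was the highest of the 10. It encodes the membrane-bound ligand of CXCR6, a receptor of activated T cells and NKT cells, and the protein also acts as a scavenger receptor for oxidised lipoprotein. The gene (ENSMUSG00000018920, mm10, chromosome 11, 70453983 to 70459984, minus strand, 6 merged exons) had 1331 reads, or 85.5 CPM (81 to 90.2). Its TPM was 84 (79.5 to 88.6), higher than that of 85% of the detected protein-coding genes (83.8% to 86.1% over the counting interval). Exons of Zmynd15, on the opposite strand, cover 552 bases (18.3%) of its exons. The protocol names no strand-marking step and the strand setting of the count is not given in the sources used here, so reads in that stretch cannot be assigned with certainty. Zmynd15 itself had 206 reads. With the overlapped bases left out of the length and the count kept, a setting chosen after seeing the data, the TPM of Cxcl16 was 103.

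Cx3cl1, which encodes fractalkine, followed. Its receptor CX3CR1 marks monocytes, macrophages and cytotoxic lymphocytes, and the membrane form also serves as an adhesion molecule. The gene (ENSMUSG00000031778, chromosome 8, 94772009 to 94782427, plus strand, 6 merged exons) had 1180 reads, or 75.8 CPM (71.5 to 80.3). Its TPM of 57.2 (54 to 60.6) exceeded that of 76.4% of detected protein-coding genes (75.1% to 78%). No exon of another gene covers it, and 100% of the 100-base stretches of its transcript occur in no transcript of another gene. With the deposited lengths, the level of Cxcl16 was 1.47 times that of Cx3cl1 (exact conditional binomial 95% interval 1.36 to 1.59). Their Poisson intervals do not overlap. The ratio would be higher with the overlapped bases left out of the length of Cxcl16 and its count kept.

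The pair also stands apart in the length of the encoded protein. The coding part of Cx3cl1 spans 395 codons and that of Cxcl16 spans 246, against 91 to 148 codons for the other 8 members. The extra length holds the stalk, the transmembrane segment and the cytoplasmic tail, features known from the proteins and not measured here.

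**Figure D2:**
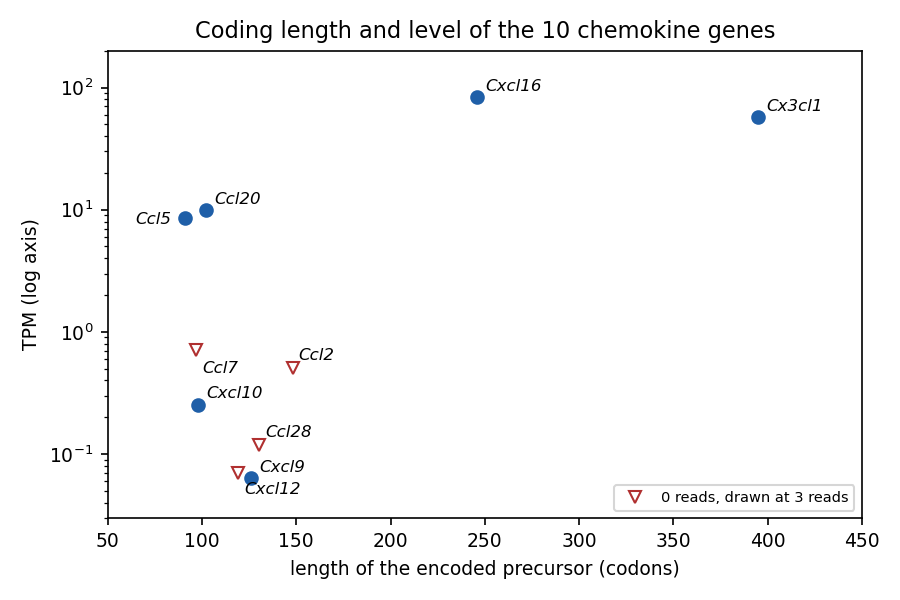
TPM (log axis) against the number of codons in the transcript with the longest open reading frame, for the 10 genes. Filled points are genes with reads and open triangles are genes with 0 reads, drawn at the TPM of 3 reads; the 2 genes with the longest coding parts, Cx3cl1 (395) and Cxcl16 (246), have the highest TPM.

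Ccl20 and Ccl5 were detected at a low level. Ccl20, the ligand of CCR6 on Th17 cells, B cells and dendritic cells (ENSMUSG00000026166, chromosome 1, 83116766 to 83119167, plus strand, 3 merged exons), had 74 reads, or 4.75 CPM (3.73 to 5.97). Its TPM of 9.93 (7.8 to 12.5) exceeded that of 26.3% of detected protein-coding genes (21.9% to 31%), a share that was 13.3% without length correction and 38.6% among genes with at least 1 read. Ccl5, or RANTES, a ligand of CCR1 and CCR3 and a product of activated T cells as well as of tumour cells (ENSMUSG00000035042, chromosome 11, 83525778 to 83530518, minus strand, 3 merged exons), had 43 reads, or 2.76 CPM (2 to 3.72). Its TPM of 8.54 (6.18 to 11.5) exceeded that of 23.4% (18.6% to 29.3%), which became 9.28% and 36.1% under the same changes. The T and NK cell marker Trac had 46 reads beside the 43 of Ccl5, while the other 8 markers of that list were at 0. The 2 genes could not be ordered: the level of Ccl20 was 1.16 times that of Ccl5, with an interval of 0.788 to 1.73. Both lay below Cx3cl1, whose level was 5.77 times that of Ccl20 (4.56 to 7.39).

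The interferon-induced ligands of CXCR3, a receptor of effector T cells and NK cells, were near or at the limit. Cxcl10 (ENSMUSG00000034855, chromosome 5, 92346638 to 92348889, minus strand) had 3 reads, a TPM of 0.254 (0.0524 to 0.742). Cxcl9 (ENSMUSG00000029417, chromosome 5, 92321347 to 92328079, minus strand) had 1 read, a TPM of 0.0632 (0.0016 to 0.352). Their intervals overlap, so they could not be ordered. Cxcl11, the remaining CXCR3 ligand of the family, had 0 reads and is annotated as a polymorphic pseudogene in the deposited data. That label belongs to the reference annotation, and the allele carried by these BALB/c cells was not examined. The level of Cxcl16 was 331 times that of Cxcl10, with a wide counting interval of 113 to 1606, and the level of Ccl5 was 33.6 times that of Cxcl10 (10.8 to 169). Exons of Art3 on the opposite strand cover 5.91% of the exons of Cxcl10, and Art3 had 1 read.

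The monocyte chemokines Ccl2 and Ccl7 were not detectable at this depth. Both encode ligands of CCR2, which releases monocytes from the bone marrow. Ccl2 (ENSMUSG00000035385, chromosome 11, 82035571 to 82037453, plus strand) and Ccl7 (ENSMUSG00000035373, chromosome 11, 82045712 to 82047525, plus strand) had 0 reads each, where the one-sided 95% limit for a count of 0 is 3 reads, or 0.193 CPM; the two-sided interval ends at 0.237 CPM. The folds given here use the limit of 3 reads, the deposited gene lengths and the count of Cxcl16 as measured. On these terms, the level of Cxcl16 per length was at least 167-fold higher than that of Ccl2. It was at least 118-fold higher than that of Ccl7. Both folds would be lower against the two-sided limit, and they change with the gene length used. No exon of either lies under another gene's exons and 100% of the 100-base stretches of both transcripts were their own, so exact sharing of annotated sequence was not seen at either gene.

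Cxcl12 and Ccl28 had 0 reads as well. Cxcl12 encodes the ligand of CXCR4, made mainly by stromal cells (ENSMUSG00000061353, chromosome 6, 117168535 to 117181367, plus strand), and Ccl28 encodes a mucosal chemokine read by CCR10 and CCR3 (ENSMUSG00000074715, chromosome 13, 119623819 to 119654359, plus strand). Both are long genes, so the same limit of 3 reads is lower per length. On the same terms as for Ccl2, the level of Cxcl16 was at least 1201-fold higher than that of Cxcl12. It was at least 711-fold higher than that of Ccl28. Both folds would be lower against the two-sided limit. They would also be lower with the longest transcripts, 5627 and 3740 bases in place of 8176 and 4844. Beside Cxcl12, 4 of the 6 fibroblast markers (Pdgfrb, Col3a1, Dcn and Lum) and 3 of the 5 endothelial markers (Pecam1, Kdr and Tie1) were also at 0, whereas Pdgfra had 839 reads, Col1a1 59, Tek 6 and Cdh5 1. Over all 10 genes, the deposited position and length were those of GENCODE vM21, and 8 had 100% own 100-base stretches; the exceptions were Cxcl10 with 96.6% and Cxcl16 with 82.6%.

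Start regions, which hold the control elements closest to a gene, differed among the members. Of the 10 genes, 6 have an entry among the RefSeq start regions (build GRCm38.p6, 250 bases before to 50 after the start): Cx3cl1, Cxcl9, Cxcl10, Cxcl12, Ccl20 and Ccl28; Cxcl16, Ccl2, Ccl5 and Ccl7 have none. Each was searched on both strands for the 10-base kappaB motif of NF-kB, the interferon-stimulated response element TTTCNNTTTC (ISRE), the gamma-activated site TTCNNNGAA (GAS) and the TATA box motif TATAAA. Only exact matches were counted, so strings close to a motif are left out, and a region without a match may still hold a site. Cxcl10, with 3 reads, held the most: 3 kappaB matches, of which 2 overlap by all but 1 base, and 1 ISRE. Ccl20 held 1 kappaB match, and Cxcl9 and Cx3cl1 1 TATAAA match each. Cxcl12 and Ccl28 held none of the 4 motifs in this window, and no member held a GAS. Of all 32851 start regions, 6.93% hold a kappaB match, 3.44% an ISRE, 8.3% a GAS and 13.6% a TATAAA match. A match is a string of letters and not a measured binding site. The sequences are shown because they set the gene with the most matches beside a detected gene with 1 and a gene with 1 read and no kappaB or ISRE match. Capitals mark the matches, each run is written 5′ to 3′ on the strand of the gene, and it ends at the base before the start.
Cxcl10 (chr5:92348890-92349139, minus strand): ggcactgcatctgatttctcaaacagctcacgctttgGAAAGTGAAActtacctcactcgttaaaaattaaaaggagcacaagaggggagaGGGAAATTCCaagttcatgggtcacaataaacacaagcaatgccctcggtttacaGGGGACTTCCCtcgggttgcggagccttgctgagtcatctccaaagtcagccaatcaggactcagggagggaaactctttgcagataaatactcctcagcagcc
Ccl20 (chr1:83116516-83116765, plus strand): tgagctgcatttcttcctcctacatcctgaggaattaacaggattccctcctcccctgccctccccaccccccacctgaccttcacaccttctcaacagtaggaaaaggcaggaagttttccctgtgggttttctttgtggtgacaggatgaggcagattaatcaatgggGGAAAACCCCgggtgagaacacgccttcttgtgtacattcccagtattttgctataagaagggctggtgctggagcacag
Cxcl9 (chr5:92328080-92328329, minus strand): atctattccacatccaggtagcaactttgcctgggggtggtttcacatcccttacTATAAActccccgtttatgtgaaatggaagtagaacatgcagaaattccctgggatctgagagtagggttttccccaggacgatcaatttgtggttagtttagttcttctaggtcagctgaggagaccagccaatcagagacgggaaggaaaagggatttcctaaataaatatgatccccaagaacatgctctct
In Cxcl10 the ISRE reads as its reverse complement and begins 213 bases before the start. The first kappaB match begins 159 bases before the start and the overlapping pair 104 and 103 bases before it. In Ccl20 the kappaB match begins 80 bases before the start, on the reverse strand. The TATAAA match of Cxcl9 begins 195 bases before the start, and that of Cx3cl1 begins 6 bases before its RefSeq start. Whether either string serves as a TATA box was not tested.

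The RefSeq start of Cx3cl1 lies inside the deposited gene, so that 171 of its 250 upstream bases belong to the deposited gene and 79 precede it. The 79 bases, shown as the upstream sequence of the only member of the membrane-bound pair with an entry, hold no match of the 4 motifs.
Cx3cl1 (chr8:94771930-94772008, plus strand): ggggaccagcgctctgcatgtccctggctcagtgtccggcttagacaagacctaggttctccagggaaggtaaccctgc
CpG content varied among detected and undetected members alike. The observed over expected CpG ratio was 0.615 for Cx3cl1 and 0.639 for Cxcl12, which had 0 reads, against a median of 0.384 over all start regions. Cxcl10 had 0.528, Cxcl9 0.271, Ccl28 0.196 and the detected Ccl20 0.145.

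Most members lie in chemokine clusters, and their neighbours differed in reads. Ccl2 and Ccl7 are 8259 bases apart, and none of the other 6 protein-coding genes that start within 150 kb of Ccl2 had a read, Ccl11, Ccl12 and Ccl8 included. Ccl20 stood alone: its 7 protein-coding neighbours in the same window had 0 reads against its 74. Ccl5 lies beside the myeloid chemokine genes Ccl9 and Ccl6, which had 8 and 7 reads, while Taf15, an RNA-binding protein gene nearby, had 3076. Cxcl9 and Cxcl10, 18559 bases apart, lie between genes of other function that were well detected, Sdad1 with 1295 reads and Nup54, a nuclear pore component, with 1057. Art3, which spans Cxcl10 on the opposite strand, had 1 read. Of the 7 other protein-coding genes that start within 150 kb of Cxcl10, 3 were detected.

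Cx3cl1 is flanked by chemokine genes that were not detected. Ccl22 before it had 0 reads and Ccl17 after it 4; both encode ligands of CCR4, a receptor of Th2 and regulatory T cells. Beyond Ccl17, Ciapin1 had 1242 reads, and beyond Ccl22, Pllp had 2. Cxcl16 lies outside the clusters, between Med11, a Mediator subunit gene with 90 reads, and Zmynd15.

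**Figure D3:**
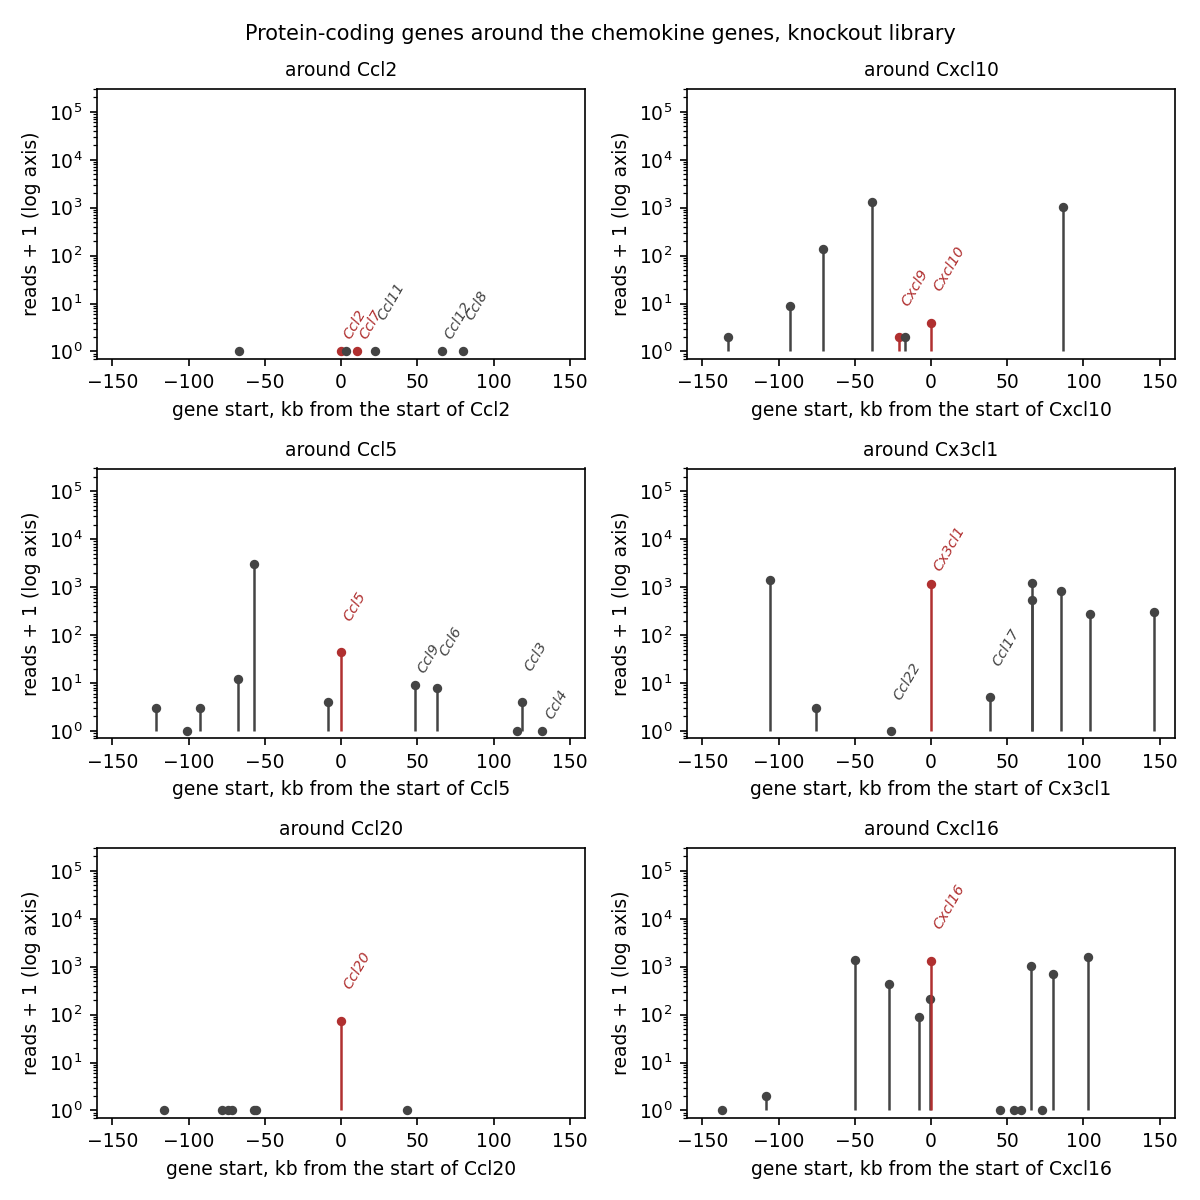
Reads plus 1 (log axis) of the protein-coding genes that start within 150 kb of 6 chemokine genes, against distance in kb from that gene's start. The described genes in these windows are red and other genes dark, with chemokines named. Cxcl12 and Ccl28 are not drawn. The genes around Ccl2 and around Ccl20 sit at 0 reads, whereas Cxcl9 and Cxcl10 lie between Sdad1 (1295 reads) and Nup54 (1057). In the window of Cxcl10, 3 of the 7 other genes were detected.

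Among the 38 chemokine genes listed for the mouse, 8 were detected and 4 exceeded the median TPM. The shares over all protein-coding genes are 52.2% and 26.1%. The 10 members took 64.7% of the 4065 chemokine reads, and Cxcl16 and Cx3cl1 alone 61.8%. With length correction these shares were 55.1% and 48.6% of the summed chemokine TPM. By TPM the order was Cxcl16, Cxcl5, Cx3cl1, Cxcl1, Ccl20 and Ccl5. Cxcl5 and Cxcl1, ligands of the neutrophil receptor CXCR2, had TPM of 79.7 and 39.1. With the full deposited length of Cxcl16, it and Cxcl5 could not be ordered, with a ratio of 1.05 (0.964 to 1.15). At that length, the level of Cxcl16 was 2.15 times that of Cxcl1 (1.91 to 2.41). With the bases under Zmynd15 exons left out of the length and the count kept, the TPM of Cxcl16 was 103. That value lies above the interval of Cxcl5 (74.2 to 85.5), so this order depends on the length used. The length of Cxcl5 was left as deposited, and keeping the count can only raise the level of Cxcl16. Any reads of Zmynd15 counted on Cxcl16 would make its level too high, and their number is unknown. Of the other 28 chemokines, Ccl25, a thymic and intestinal chemokine, and Cxcl3 were also detected, with TPM of 5.74 and 0.654, and 17 had 0 reads, among them Ccl1, Ccl11, Ccl12 and Ccl19.

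Receptors for the members were mostly not detectable in the same cells. Of 10 receptor genes listed, 2 were detected and 5 had 0 reads, where 52.2% of all protein-coding genes were detected and 37.4% had 0. Ackr3, the atypical receptor that takes up CXCL12 without G protein signalling, had 1046 reads and a TPM of 59.6, above 77.5% of detected protein-coding genes, beside 0 reads of Cxcl12 and 0 of Cxcr4, the signalling receptor of CXCL12. Ccr10, a receptor of CCL28, had 11 reads beside 0 of Ccl28. The receptors of the expressed pair were at the limit, with 0 reads of Cxcr6 and 1 of Cx3cr1. Cxcr3 had 6 reads, Ccr2 had 1, and Ccr1, Ccr3 and Ccr6 had 0. Among the 5 atypical receptors, which bind chemokines without G protein signalling, only Ackr3 was detected; Ackr4 had 4 reads, and Ackr1, Ackr2 and Ccrl2 had 0.

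Of 7 proteases that release or trim chemokines, 4 were detected, all 4 above the median. Of all protein-coding genes, 52.2% were detected and 26.1% were above the median. Of 3 regulators of ADAM17, the iRhom genes Rhbdf1 and Rhbdf2 were detected above the median and the inhibitor gene Timp3 had 0 reads. Adam10, a sheddase of CX3CL1 and CXCL16, had a TPM of 78.2. Adam17, the sheddase best known for TNF, which also cuts CX3CL1, had 25.1. Its interval of 23.6 to 26.8 includes the median of 24.4. Rhbdf1, whose product helps to carry ADAM17 to the cell surface, had 88.4. The matrix metalloproteinases Mmp14 and Mmp9 had 119 and 80.7. Dpp4, a peptidase that trims the N terminus of CXCL10, CXCL12 and CCL5, had 1 read, Mmp2 had 2, and Ctss, cathepsin S, had 0.

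Genes of the pathways that induce chemokines were detected throughout, at uneven levels. All 16 transcription factors and kinases listed were detected and 10 exceeded the median. The highest by TPM were Nfkb2 (278), Cebpb (270), Rela (179) and Jun (111), of the NF-kB, C/EBP and AP-1 families. Those with the fewest reads were Irf7 (14) and Stat2 (229), which serve interferon signalling, and the NF-kB subunits Rel (338) and Relb (488). By TPM, Irf9 (17.4) and Ikbkb (17.5) lay below Relb (23.9). All 12 receptors of inducing cytokines and microbial ligands were detected and 8 exceeded the median. For both lists, the shares over all protein-coding genes are 52.2% detected and 26.1% above the median. Ltbr, the lymphotoxin beta receptor, had a TPM of 90.8, Tnfrsf1b 87.1, Tnfrsf1a 79.5 and the interferon gamma receptor chain Ifngr2 46.2. The fewest reads fell on Ifnar2 (260), Il17rc (509), Tlr3 (526) and Tlr4 (532). By TPM, Ifnar2 (14.9), Il1r1 (16.2), Tlr4 (18.3) and Tlr3 (19.3) lay below the median, and Il17rc (36.3) lay above it.

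Chromatin enzymes reported to hold Cxcl9 and Cxcl10 silent in tumour cells were detected in 9 of 9 cases, and 6 exceeded the median. Over all protein-coding genes, 52.2% were detected and 26.1% were above the median, which is by definition the midpoint of the detected genes. The highest by TPM were Dnmt1 (204), the maintenance DNA methyltransferase, Suz12 (113), a Polycomb subunit, and the deacetylases Hdac2 (62.8) and Hdac1 (54.4). The fewest reads fell on Dnmt3b (119), Eed (601), Dnmt3a (870) and Kdm5b (899). By TPM, Dnmt3b (4.44), Dnmt3a (9.97) and Kdm5b (10.4) lay below the median, and Eed (29.9) lay above it. Whether any of them bears on the counts of Cxcl9 and Cxcl10 was not tested.

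**Figure D4:**
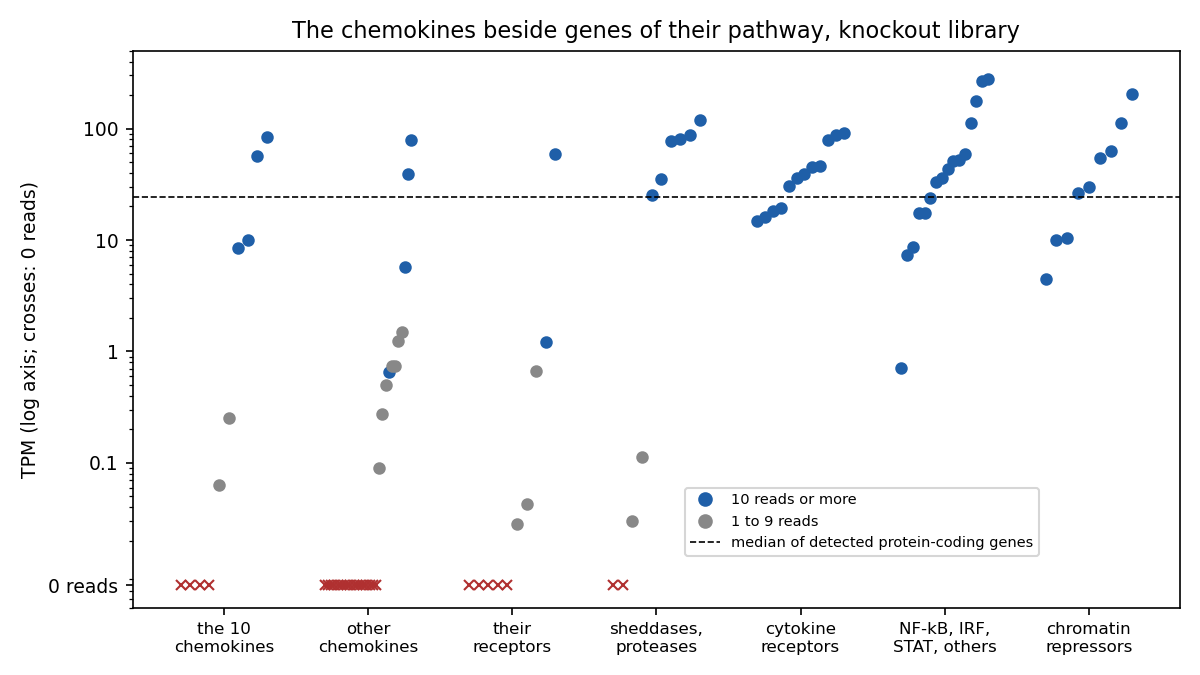
TPM (log axis) of the 10 chemokines, the other 28 chemokines, the receptors of the 10, proteases and their regulators, receptors of inducing cytokines, induction factors and chromatin repressors, 1 point per gene. Crosses mark genes with 0 reads and the dashed line is the median of detected protein-coding genes (24.4); all genes of the last 3 lists have at least 10 reads, whereas 4 of the 10 chemokines and 5 of their 10 receptors have 0.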

How the data were processed

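The deposited table holds whole-number read counts per gene, made by the authors and not normalized, with gene positions and lengths. The submitters' processing notes name build mm10 and the tools featureCounts 1.5.0-p3, HISAT2 2.0.5 and CASAVA; which annotation, strand setting and treatment of multi-mapping reads were used is not given in the sources. The column headed KO matches the title of the knockout sample. There is 1 other column of per-sample values, which matches no label and was not used. CPM and TPM were computed here from the deposited counts and gene lengths; a percentile is the share of detected protein-coding genes (11497 in all) whose TPM was lower. Gene structure, overlap and shared sequence came from GENCODE vM21 (GRCm38), start regions from RefSeq. The members and lists were chosen with earlier results of these data known. All members were named; from other lists, up to 4 genes highest by TPM and up to 4 with the fewest reads, and genes next to a member. The remaining receptors of the members and atypical receptors, Adam17, Rhbdf2, Il1r1, Irf9, Ikbkb, Cxcl11, Ccl8 and the markers were named after their values were seen. In Poisson draws for 13793 protein-coding genes, 95.8% of intervals held the simulated mean. This checks the computation only and cannot show whether the reads follow a Poisson distribution. Of the listed genes, 2 are not reported here. No test between samples was made. Python 3.11.15, numpy 2.4.6, pandas 2.3.3, scipy 1.17.1 and matplotlib 3.10.9 were used.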

Additional observations from a re-analysis of the deposited data

How the results depend on the processing

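No paired analysis was possible because each group has a single sample, and no replicate could be left out. Depth limits the genes near 3 reads, and the spread between cultures is unknown. Of 12 CPM values under other totals, 12 stayed within their counting intervals. Detection at 100 reads in place of 10 left 2 members, 5 of all chemokines, 1 receptor of the members, 1 fibroblast marker and 0 T and NK cell markers. Detection at 3 reads gave 10 of the other chemokines, 15 of all chemokines, 2 atypical receptors and 1 endothelial marker. Detection at 1 read gave 11, 17, 2 and 2 of these, with 5 receptors of the members and 5 myeloid markers; 2 myeloid markers exceeded the median of genes with at least 1 read. These follow from the threshold itself. Percentiles moved with the reference set and the length: Cxcl16 ranged from 74.8 without length correction to 87.5 among genes with at least 1 read, Cx3cl1 from 71.2 with the longest transcript's length to 80.4, Ccl20 from 13.3 to 38.6 and Ccl5 from 9.28 to 36.1. With the longest protein-coding transcript as length, Ccl5 ranked 3 and Ccl20 ranked 4. Cxcl16 and Cx3cl1 stayed first and second in each order tried. The TPM of Cxcl16 moved from 84 to 103 when the bases under another gene's exons were left out of its length. Ratios with Cxcl16 were computed for the full deposited length only.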
